A study of Mus musculus with 28 samples.

Results

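The 39 Hox genes of the mouse were taken from the 4 Hox clusters by symbol (Hoxa, Hoxb, Hoxc or Hoxd plus a number), out of 21887 protein-coding genes in the annotation. Cluster A holds 11 of them, cluster B 10, cluster C 9 and cluster D 9. Binding events of 4 Forkhead transcription factors were counted inside each cluster and within 50 kb of its outermost genes, and of 162571 events in 14 lists, 75 lay there.

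Hox genes encode homeodomain transcription factors that give cells their position along the body axis. Within a cluster the genes are numbered by paralogue group, and low-numbered (anterior) genes are switched on earlier and nearer the head than high-numbered (posterior) ones. In ES cells the clusters are known to be held largely silent under Polycomb marks, with active marks at many promoters, and retinoic acid or differentiation opens them from the anterior end. Forkhead factors bind a short A/T-rich core sequence. FoxA1 is a pioneer factor of endoderm, FoxC1 acts in mesoderm and eye, FoxL2 in the granulosa cells of the ovary, and FoxP3 in regulatory T cells.

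All libraries were ChIP-exo, in which an exonuclease trims immunoprecipitated DNA towards the crosslinked protein. All came from MC1 mouse ES cells of the 129S6/SvEvTac background, and each induced line carried 1 factor with a C-terminal His and FLAG tag at Rosa26, under doxycycline (Dox) repression. Dox was washed out, and the cells then stayed in differentiation medium for the stated time, so induction and change of medium went together in every group. Lines MC1(+iFoxA1), MC1(+iFoxC1), MC1(+iFoxL2) and MC1(+iFoxP3) were taken at 24 h, with 3, 2, 2 and 2 libraries. All of these were made with anti-FLAG, apart from 1 FoxA1 library with anti-FoxA1. Each factor has 1 list, named for the factor alone and taken here to combine its libraries. MC1(+iFoxA1) was also taken at 0, 6, 12, 24 and 48 h with anti-FLAG and with anti-FoxA1, with 1 library and 1 list each. The 2 libraries of MC1(null), the empty control at 0 h, have no list used here. Each factor rests on 1 line and no list has a replicate, so there is no test between conditions. RNA was not measured, so neither the ES identity of the cells nor Hox expression could be checked. Read depth is unknown, and the lists differ greatly in length. The combined lists held 32940 events for FoxA1, 7229 for FoxL2, 4383 for FoxP3 and 1106 for FoxC1 on chromosomes 1 to 19, X and Y. The anti-FoxA1 course held 15, 86, 8330, 35092 and 41678 events in time order, and the anti-FLAG course 2, 16, 1656, 15965 and 13880.

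On mm10, cluster A lies on chromosome 6, with Hoxa13 at its higher coordinate. Cluster B lies at chr11:96194316-96368254, cluster C at chr15:102921131-103036856 and cluster D at chr2:74668225-74765142, all with gene 13 at the lower coordinate. The clusters cover 492 kb and, with 50 kb on either side, 892 kb, or 0.033% of the 2700 Mb span of these chromosomes. The annotation gives gene intervals without exons, so whether an event in a gene is exonic or intronic is not given here.

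The promoters of 2 long noncoding RNAs beside posterior genes held FoxA1 events, and they are shown because they are the only promoters in the tables, at any Hox cluster, with both an event and a readable sequence. Hottip, known as a noncoding RNA that works with Wdr5 at posterior HoxA genes, starts just beyond Hoxa13. Its promoter window is chr6:52262525-52262824 on the plus strand. Gm30134 lies between Hoxb13 and Hoxb9, and of its 3 windows the one with events is chr11:96203379-96203678, read here on the minus strand. Both are RefSeq sequences of GRCm38.p6, the same build as mm10, from the C57BL/6J reference and not from the 129S6 cells. Each runs from 250 bases before a start site to 50 after it. Capitals mark matches, on either strand, to TGTTTAC or TATTTAC or TGTTTAT or TATTTAT, common forms of the Forkhead core.
Hottip: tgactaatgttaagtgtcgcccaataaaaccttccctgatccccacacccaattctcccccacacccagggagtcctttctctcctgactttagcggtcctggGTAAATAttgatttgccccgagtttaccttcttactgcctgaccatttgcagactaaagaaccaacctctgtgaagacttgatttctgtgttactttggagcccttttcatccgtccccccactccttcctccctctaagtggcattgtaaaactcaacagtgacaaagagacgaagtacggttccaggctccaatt
Gm30134: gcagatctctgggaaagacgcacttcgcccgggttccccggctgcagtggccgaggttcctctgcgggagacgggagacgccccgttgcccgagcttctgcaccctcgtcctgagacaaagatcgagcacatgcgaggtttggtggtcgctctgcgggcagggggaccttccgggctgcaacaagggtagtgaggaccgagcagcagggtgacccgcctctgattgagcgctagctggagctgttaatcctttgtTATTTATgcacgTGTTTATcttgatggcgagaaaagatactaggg

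In the Hottip window the 1 match, GTAAATA, fills bases 104 to 110. Events of 5 FoxA1 lists lay at bases 111 to 116, at most 6 bp from it and 135 to 140 bp upstream of the start site. In the Gm30134 window the 2 matches fill bases 256 to 262 and 268 to 274. Its FoxA1 events lay at base 264 with anti-FoxA1 at 24 h and at base 267 in the combined list and with anti-FoxA1 at 48 h, and the FoxP3 event lay at base 274, in the last letter of the second match. All 4 were therefore on or between the matches. Over all 32851 promoter windows, 15.0% held any of the 4 forms. Among the 473 windows with a combined FoxA1 event, 49.0% did. Within 25 bases of 384 such events whose surroundings lay in the window, 39.3% had a form, against 2.65% of all windows of 51 bases.

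The Hox promoters that have a window held none of the events. The sequence table has 24 windows for 22 Hox genes, and 17 Hox genes have none. Windows cover 9 of 11 genes in cluster A, 3 of 10 in B, 1 of 9 in C and 9 of 9 in D. Most promoters of clusters B and C could therefore not be examined. An event of any list lay in 0 of these 24 windows, against 2.68% of all promoter windows, and a combined FoxA1 event lay in 1.44% of all. At such rates 0 of 24 is not distinguishable from the rest. TGTTTAC was in 0 of the 24 Hox windows and in 3.65% of all. Any of the 4 forms was in 7 of the 24 windows, or 29.2%, against 15.0% of all, a difference that was not tested. These 7 windows belong to Hoxa2, Hoxa10, Hoxb8, Hoxd1, Hoxd4 and Hoxd11.

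FoxA1 events were found around all 4 clusters, at a density above that of the whole genome but with an interval that just includes it. The combined FoxA1 list had 18 events in the 892 kb, where its density over all chromosomes gives 10.9. That is 2.02 events per 100 kb, with an exact Poisson 95% interval of 1.2 to 3.19, against 1.22 per 100 kb over the genome. Intervals on counts cover counting error only. Inside the clusters there were 8 events (1.63 per 100 kb, 0.702 to 3.2), and in the flanks 10 (2.5 per 100 kb, 1.2 to 4.6). The inside and flank intervals overlap, and each lower bound of 1.2 lies just under the genome value of 1.22. By cluster, the combined list had 3, 6, 6 and 3 events at A, B, C and D. Inside them it had 0, 4, 2 and 2.

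The other factors had few events there. FoxL2 had 4, where 2.39 are given by its density, with 2 each at clusters A and C. FoxP3 had 3 against 1.45, with 2 at cluster B and 1 at cluster C. FoxC1 had 0 against 0.365, and 0 events allow up to 0.414 per 100 kb, so a list this short cannot show whether FoxC1 differs there. Its nearest event to any Hox gene lay 170853 bp from Hoxc4.

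**Figure D1:**
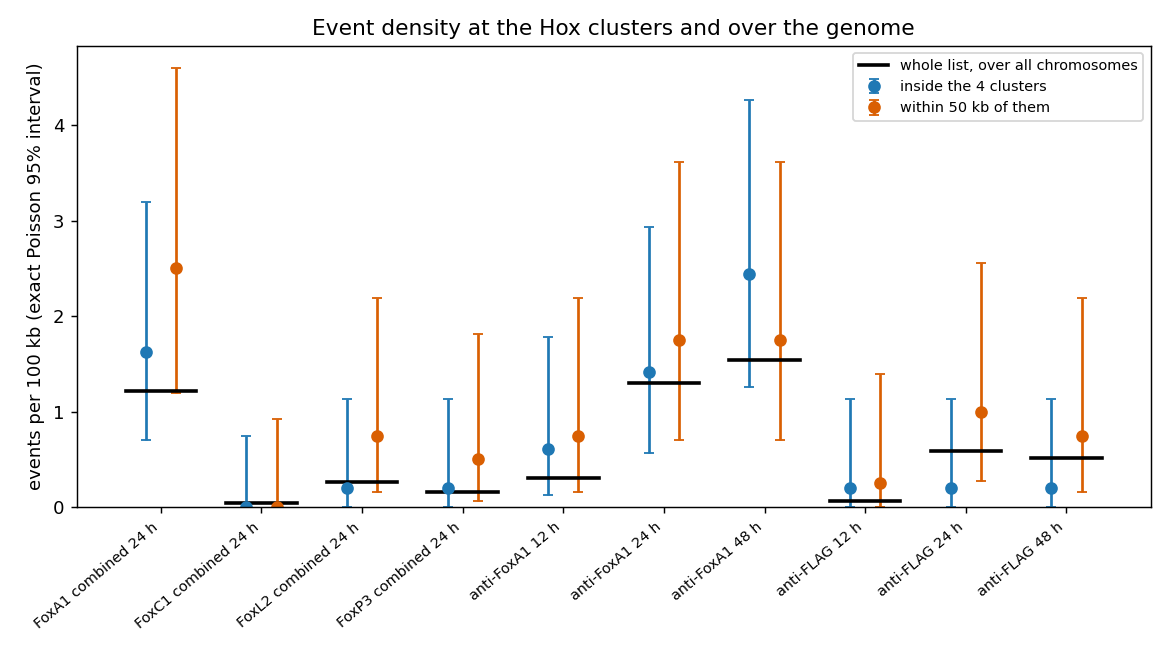
Events per 100 kb (vertical axis) in 10 lists, inside the 4 clusters (blue) and within 50 kb of them (orange), with exact Poisson 95% intervals; black lines give the density of the whole list. For the combined FoxA1 list the values are 1.63 inside and 2.5 in the flanks against 1.22, and all intervals in the plot include the black line.

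The events of all lists, joined where they lay within 100 bp, made 30 sites. Of these, 15 were inside a cluster and 15 in a flank. Inside, 7 sites lay in a Hox gene and 8 between Hox genes. Cluster A had 7 sites, B 8, C 12 and D 3. In all 13 sites came from 1 list, 17 from 2 or more, 12 from 3 or more and 4 from 5 or more. A FoxA1 list called 27 of the sites. The FoxA1 lists share the line and in part may share libraries, so agreement among them is not independent.

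**Figure D2:**
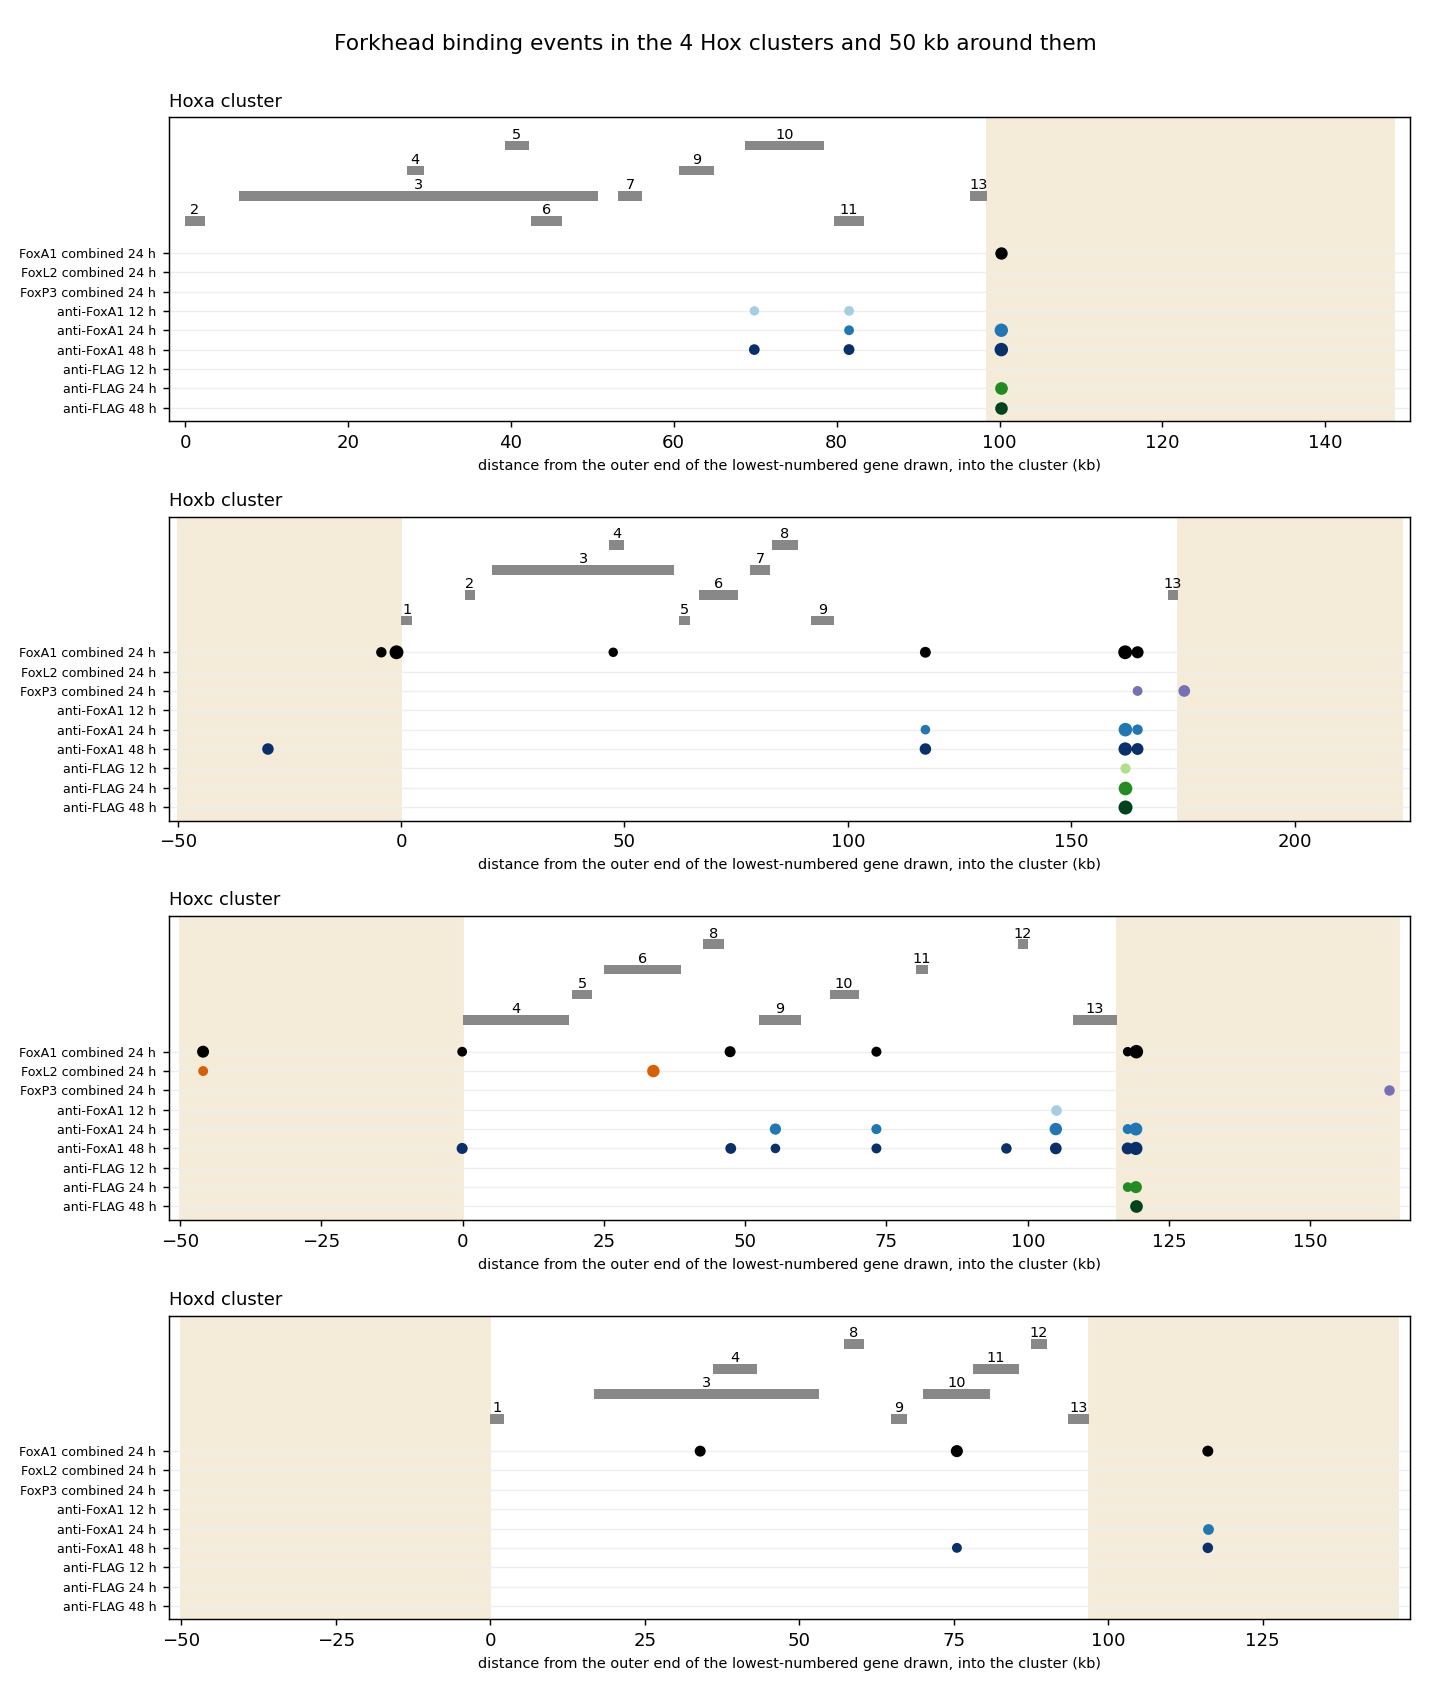
Positions of events by list (rows) in each cluster, as distance in kb from the outer end of the lowest-numbered gene drawn. Grey boxes are Hox genes with their paralogue number, shaded bands are the 50 kb flanks, and larger points have higher scores. Cluster A is drawn from Hoxa2 on, and its anterior flank is not drawn. Cluster D has no anti-FLAG event, and the stretch from Hoxb9 to Hoxb1 is almost empty.

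Posterior genes had more of the repeated sites. By the nearest Hox gene, 16 sites fell to posterior genes (paralogues 9 to 13), 3 to central genes (5 to 8) and 11 to anterior genes (1 to 4). The bases nearest to these classes make up 47.6%, 8.92% and 43.5% of the windows. Of the 17 sites in 2 or more lists, 13 were posterior, 0 central and 4 anterior. Inside the clusters, posterior stretches held 10 sites (4.46 per 100 kb, 2.14 to 8.2) and anterior stretches 2 (1.06, 0.129 to 3.84). Those intervals overlap. In the anti-FoxA1 list at 48 h the posterior class had 15 of the 19 events, and the inside densities were 4.9 per 100 kb (2.45 to 8.78) for posterior and 0 (up to 1.96) for anterior stretches. Over the whole window the 48 h densities were 3.54 (1.98 to 5.83) for posterior and 0.773 (0.159 to 2.26) for anterior stretches, and those intervals overlap. The combined list did not show this split over the whole window, with 8 anterior and 9 posterior events. Inside the clusters the combined list had 5 posterior events (2.23 per 100 kb, 0.724 to 5.2) and 2 anterior ones (1.06, 0.129 to 3.84), again with overlapping intervals.

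ChExMix gives each event a score, from 43 to 1000 in these lists, whose scale is not given, so scores are the authors' own and rank events only within a list. Beyond the posterior end of cluster A, a site in 5 FoxA1 lists lay at chr6:52262635-52262640, the Hottip promoter shown above. It lies 1755 to 1760 bp beyond the upstream end of Hoxa13, a gene of distal limb and hindgut. Its scores were 150 in the combined list, 253 and 266 with anti-FoxA1 at 24 and 48 h, and 175 and 167 with anti-FLAG at the same times. Neither antibody called it at 12 h. The 106 kb of cluster A itself held no combined FoxA1 event and no anti-FLAG event.

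Inside cluster A, only the anti-FoxA1 antibody gave events. In Hoxa10, a gene of the uterus and the limb, a site at chr6:52232310-52232315 scored 43 at 12 h and 69 at 48 h and was not called at 24 h. In Hoxa11, which acts in forelimb and kidney, a site at chr6:52243939-52243947 scored 47, 49 and 75 at 12, 24 and 48 h. All 5 scores lie below the median of their list. Each site also lies in a noncoding gene of the table, Gm52902 at Hoxa10 and LOC115490410 at Hoxa11. The far anterior flank held events in Halr1, a noncoding gene, at chr6:52105415-52105421, scored 72 in the combined list and 44 and 92 with anti-FoxA1 at 12 and 24 h. A further event lay in Halr1 at chr6:52107079, called by anti-FoxA1 at 12 h alone with a score of 51.

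In cluster B the events gathered in the long gap between Hoxb13 and Hoxb9. Hoxb13, known for the prostate and the tail and as a partner of FoxA1 in prostate cells, stands 74.7 kb from Hoxb9. The gap held 3 combined FoxA1 events, 3 of anti-FoxA1 at 24 h and 4 at 48 h. The 96.9 kb from Hoxb9 to Hoxb1, with 9 of the 10 genes, held 1 combined FoxA1 event and 0 in each of the other lists. The leading site, at chr11:96206052-96206187, lies 9442 to 9577 bp from Hoxb13 and was in 6 FoxA1 lists. Its combined score was 326. With anti-FoxA1 it scored 283 at 24 h, and at 48 h it had 2 events of 250 and 113. With anti-FLAG it scored 57, 293 and 366 at 12, 24 and 48 h. The Gm30134 site scored 130 in the combined list, 62 and 117 with anti-FoxA1 at 24 and 48 h, and 49 for FoxP3. The remaining site of the gap, at chr11:96250898-96250904, 20426 to 20432 bp from Hoxb9, scored 75, 45 and 98 in the same 3 FoxA1 lists.

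The anterior end of cluster B was seen by the combined FoxA1 list and little else. Its event in Hoxb3 and Hoxb4, whose intervals overlap there, lies at chr11:96320776 and has the lowest score in use, 43. Hoxb4 is known for blood stem cells. Beyond Hoxb1, a gene of the hindbrain, it had an event at 1031 bp with a score of 331, at the 83.9th percentile of the list, and one at 4428 bp with a score of 62. No other list had an event at any of these 3 positions. At 48 h, anti-FoxA1 gave an event 29807 bp beyond Hoxb1 with a score of 99. On the posterior side, FoxP3 alone had an event 1362 bp from Hoxb13, at chr11:96192954, with a score of 107.

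Cluster C had the most sites, 12, and most of them were posterior. Beyond Hoxc13, a gene of hair and nail, the site at chr15:102917640-102917728 was in 5 FoxA1 lists. It scored 269 in the combined list, 192 and 231 with anti-FoxA1 at 24 and 48 h, and 126 and 173 with anti-FLAG. A neighbour at chr15:102919170-102919183 scored 43 in the combined list, 52 and 120 with anti-FoxA1 at 24 and 48 h, and 47 with anti-FLAG at 24 h. Between Hoxc13 and Hoxc12, anti-FoxA1 called chr15:102931895 at the same base at 12, 24 and 48 h, with scores of 68, 152 and 108, and no other list called it. Between Hoxc11 and Hoxc10, a site at chr15:102963640-102963643 scored 53 in the combined list and 54 and 51 with anti-FoxA1 at 24 and 48 h. Anti-FoxA1 at 48 h alone called chr15:102940638 between Hoxc12 and Hoxc11, with a score of 63, at 3424 bp from Hotair, the noncoding RNA of that gap.

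From Hoxc9 to the anterior end of cluster C, no site was in more than 2 lists. In Hoxc9, a gene of the thorax, anti-FoxA1 scored 88 at 24 h and 45 at 48 h. Between Hoxc9 and Hoxc8, 2 single events lay just over 100 bp apart and were not joined. One was of anti-FoxA1 at 48 h, 1124 bp from Hoxc8, and the other of the combined list, 1008 bp from it. In Hoxc6, FoxL2 alone had an event at chr15:103003108, whose score of 154 lies at the 88.7th percentile of its list. At 85 to 92 bp beyond the end of Hoxc4, the gene at the anterior end, the combined list scored 48 and anti-FoxA1 at 48 h 81. Near the outer edge of that flank, FoxL2 (score 50) and combined FoxA1 (score 123) met within 18 bases at chr15:103082777-103082794. On the other side FoxP3 had an event 48245 bp from Hoxc13, with a score of 63.

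Cluster D had the fewest sites, 3, all of FoxA1. One lay at chr2:74649017-74649022, 19203 to 19208 bp beyond Hoxd13 and close to Evx2, with scores of 78 in the combined list and 73 and 64 with anti-FoxA1 at 24 and 48 h. One in Hoxd10, which acts in hindlimb motor neurons, scored 129 in the combined list and 50 with anti-FoxA1 at 48 h. One in Hoxd3, a gene of the neck vertebrae, was in the combined list alone, with a score of 78. No anti-FLAG list of the course and none of the 3 other factors had an event at cluster D. The counts are small: the interval for 0 events over all 4 windows already reaches 0.414 per 100 kb, and for 1 cluster it is wider.

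Over time, events at the Hox clusters first appeared at 12 h. The anti-FoxA1 lists had 0, 0, 6, 14 and 19 events in the windows at 0, 6, 12, 24 and 48 h. The density of each whole list gives 0.00495, 0.0284, 2.75, 11.6 and 13.8. The anti-FLAG lists had 0, 0, 2, 5 and 4, where density gives 0.00066, 0.00528, 0.546, 5.27 and 4.58. Hox counts moved with the length of the whole list, and at 12, 24 and 48 h the intervals include the genome density for both antibodies. At 12 h, 5 of the 6 anti-FoxA1 events were at cluster A and 1 at C. At cluster A density gives 0.633, and its 2.43 per 100 kb (0.79 to 5.68) lies above the genome value of 0.308. With events at or above the median score, cluster A kept 1 of these events. This is 1 of 4 clusters, and the difference was not tested. At 24 h the split over A, B, C and D was 5, 3, 5 and 1, and at 48 h it was 4, 5, 8 and 2. The 48 h density at cluster C, 3.71 per 100 kb (1.6 to 7.31), also lies above its genome value of 1.54. The density over its own chromosome is 1.6. With events at or above the median score, cluster C kept 3 of the 8, and this difference was not tested either.

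Most sites, once called, were called again. Of the 21 sites of the anti-FoxA1 course, 6 were called at 12 h, 10 first at 24 h and 5 first at 48 h, and 3 were called at all 3 of these times. Of the 14 sites at 24 h, 12 were called again at 48 h, and of the 6 at 12 h, 4 at 24 h. For whole lists the share of 24 h events with a 48 h event within 100 bp was 72.0%, and for the Hox events 85.7%. From 12 to 24 h these shares were 89.2% and 66.7%. The anti-FLAG course called 5 sites, all also called by anti-FoxA1 at 24 h. Over the whole anti-FLAG list at 24 h, 86.0% of events had an anti-FoxA1 event of 24 h within 100 bp. The 5 sites include those at Hottip, in the gap beside Hoxb13 and the pair beyond Hoxc13, and 4 of the 5 lie in a flank. Of the combined FoxA1 events at the clusters, 55.6% had an anti-FoxA1 event at 24 h within 100 bp, against 54.8% of the whole list. With anti-FLAG at 24 h these shares were 27.8% and 33.0%.

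**Figure D3:**
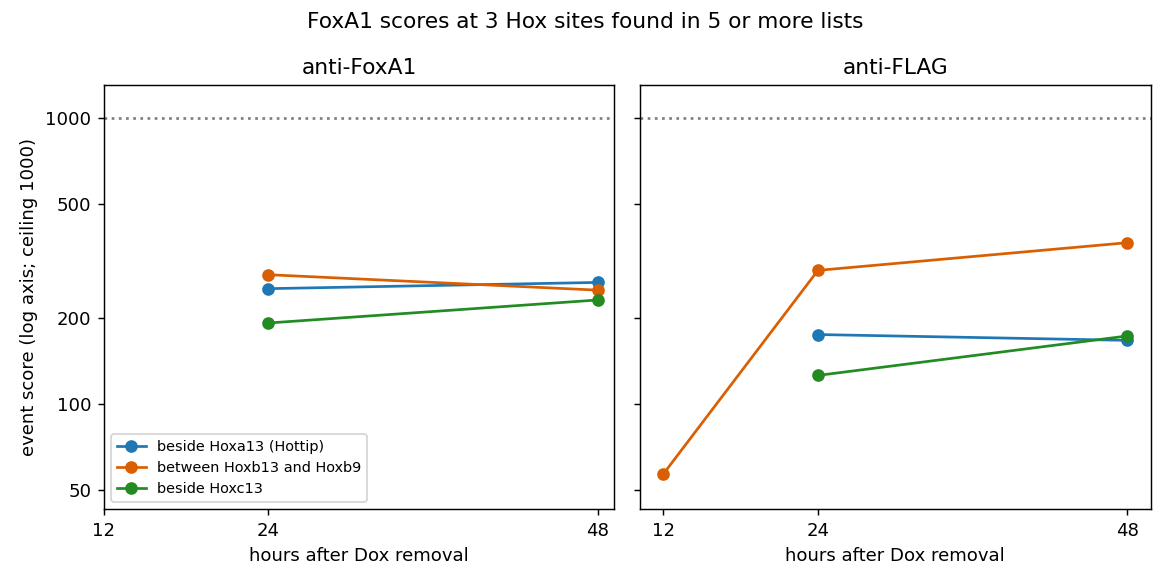
Authors' event score (log axis, dotted line at the ceiling of 1000) against hours after Dox removal at 3 of the 4 sites found in 5 or more lists, for anti-FoxA1 (left) and anti-FLAG (right). Where a list had 2 events, the higher score is drawn. Scores rank events only within a list, so the lines between times do not measure a change in binding. With anti-FLAG the site between Hoxb13 and Hoxb9 has the highest scores, 293 and 366 at 24 and 48 h, and of these 3 sites it alone has a point at 12 h.

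Scores of the Hox events against their whole lists differed from list to list. The median of the 18 combined FoxA1 scores was 79.0, against 106.0 for the list, and 44.4% reached 100, against 53.3% of the list. With anti-FoxA1 the medians were 49.0 against 74.0 at 12 h, 80.5 against 86.0 at 24 h and 98.0 against 89.0 at 48 h. With anti-FLAG they were 151.5 against 73.5 for the 2 events at 12 h, 175.0 against 96.0 for the 5 at 24 h and 269.5 against 92.0 for the 4 at 48 h.

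Counted by gene, nearly every Hox gene had a combined FoxA1 event within 50 kb of an end, 38 of 39, where 73.4% of all protein-coding genes did. Neighbouring Hox genes share events, so these are not 38 separate observations, and 18 events account for all of them. The mean number of events per Hox gene was 2.08, below the 2.42 of all protein-coding genes. The exception was Hoxa6, whose nearest combined event lay 51336 bp away, just outside the limit, while anti-FoxA1 events lay nearer. Of the 18 combined events, 12 had an event of a FoxA1 course list within 100 bp, and 67.9% of the whole list did. Counting those alone, 32 Hox genes (82.1%) had an event within 50 kb, against 64.0% of all genes. The 6 genes lost were Hoxb1, Hoxb2, Hoxb3, Hoxb4, Hoxb5 and Hoxd1.

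Other lists gave shares nearer the background or below it. For anti-FoxA1 the Hox counts were 16 at 12 h, 30 at 24 h and 35 at 48 h, where 36.6%, 73.5% and 76.6% of all genes had an event. The Hox shares are 41.0%, 76.9% and 89.7%. With only events at or above the median score of their list, these shares lay below those of all genes, at 12.8%, 51.3% and 56.4% against 22.8%, 55.3% and 61.6%. For anti-FLAG the counts were 6, 15 and 15, or 15.4%, 38.5% and 38.5%, against 9.81%, 51.6% and 49.1% of all genes. With the same limit on scores the anti-FLAG shares at 24 and 48 h, both 38.5%, lay above the 34.5% and 31.6% of all genes. FoxL2 had 12 Hox genes, 30.8% against 30.9%. FoxP3 had 2, Hoxb13 and Hoxc13, against 20.6%, and FoxC1 had 0 against 7.26%. At 24 h the mean per Hox gene was 1.64 with anti-FoxA1, against 2.69 over all genes, and 0.513 with anti-FLAG, against 1.14.

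**Figure D4:**
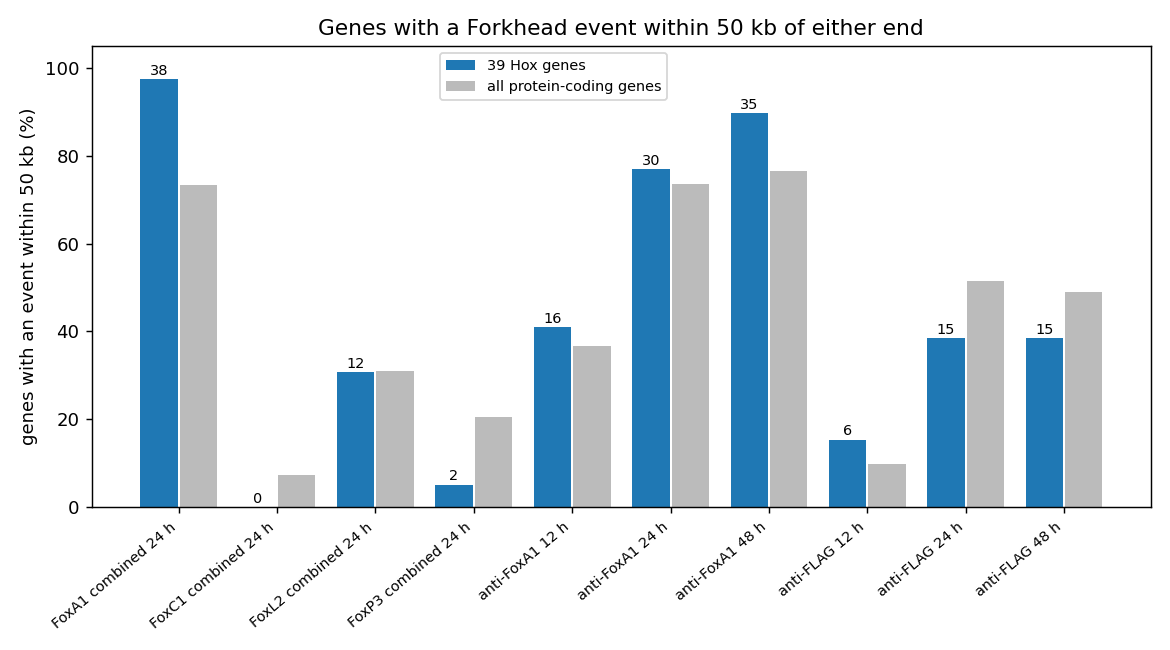
Percent of genes that have an event no more than 50 kb from an end, for the 39 Hox genes (blue, with the number of genes above the bar) and all protein-coding genes (grey), by list. The Hox bar is the higher one for combined FoxA1 (38 of 39 against 73.4%) and the lower one for both later anti-FLAG lists (15 of 39 against 51.6% and 49.1%).

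**Figure D5:**
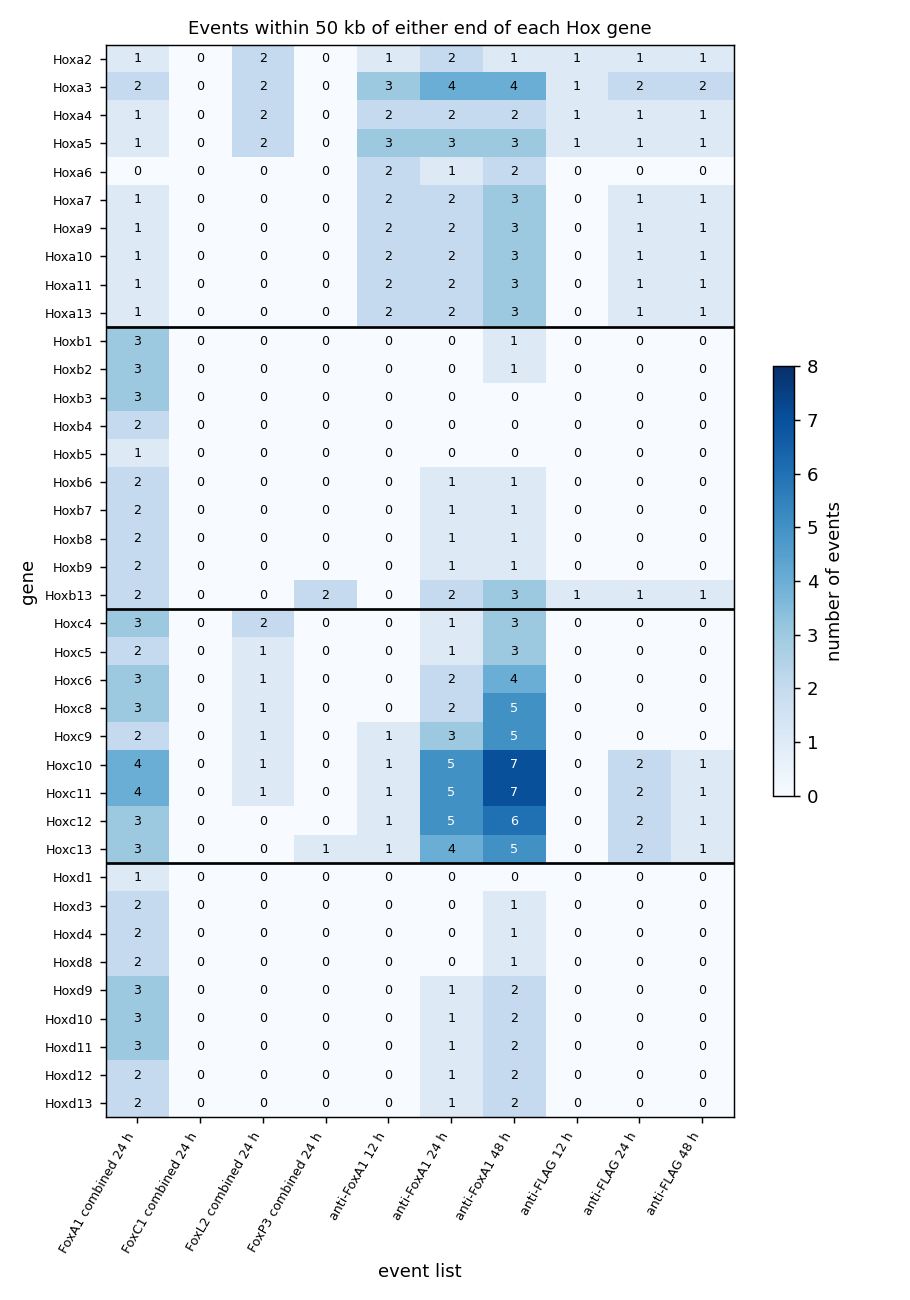
Number of events within 50 kb of either end of 38 of the 39 Hox genes (rows, by cluster) in each list (columns). The highest counts, 7 events, are those of Hoxc10 and Hoxc11 with anti-FoxA1 at 48 h, and the genes from Hoxb1 to Hoxb4 have counts above 1 in the combined FoxA1 list alone.

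Gene by gene, the 7 events around Hoxc10 and Hoxc11, which act in the lumbar and limb-level spinal cord, were the most in any list, with 5 at 24 h and 4 in the combined list. Hoxa3, whose annotated interval also holds Hoxa4, Hoxa5 and Hoxa6, had 4 at 24 and 48 h. Hoxb13 had 2 combined FoxA1, 2 FoxP3 and 3 anti-FoxA1 events at 48 h, and 1 anti-FLAG event at each of 12, 24 and 48 h. Hoxb3, Hoxb4 and Hoxb5 had no event in any time-course list within 50 kb of an end. Hoxd1 likewise had 1 combined FoxA1 event and no other.

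Within genes or close to their ends, a smaller share of Hox genes than of all genes had an event. An event of any list lay in 8 of the 39 Hox genes (Hoxa10, Hoxa11, Hoxb3, Hoxb4, Hoxc6, Hoxc9, Hoxd3 and Hoxd10), and within 1 kb of Hoxc4 as well, which makes 9 of 39, against 46.7% of all protein-coding genes. Hoxc8 and Hoxb1, with events at 1008 and 1031 bp, stand just outside. For the combined FoxA1 list the count was 5, against 32.3%. Hox genes are short, with a median of 3.74 kb against 17.2 kb, and a shorter gene offers fewer bases to an event. The part of length in this difference was not tested. The other 30 Hox genes had no event in the gene or within 1 kb in any list.

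Farther out, the density around the clusters was above that of the genome in bands beyond 100 kb for combined FoxA1 and some other lists. For combined FoxA1, against 1.22 over the genome, it was 2.5 per 100 kb within 50 kb, 1.25 from 50 to 100 kb, 1.87 from 100 to 200 kb and 2.08 (1.55 to 2.75) from 200 to 500 kb. With anti-FoxA1 from 200 to 500 kb it was 2.33 (1.76 to 3.03) at 24 h and 3.58 (2.87 to 4.43) at 48 h, against 1.3 and 1.54 over the genome. All 3 of these intervals lie above the genome value. So do those of anti-FoxA1 at 12 h, 0.667 (0.381 to 1.08) against 0.308, and anti-FLAG at 48 h, 0.958 (0.608 to 1.44) against 0.513. That of anti-FLAG at 24 h, 0.833 (0.509 to 1.29), includes its 0.591. The intervals of anti-FLAG at 12 h, FoxL2, FoxP3 and FoxC1 in this band also include their genome values. Of the 50 combined events in the outermost band, 23 lay around cluster B and 4 around cluster D.

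Genes that regulate Hox clusters or work with their products were counted the same way, and read against the same shares of all genes, 73.4% for combined FoxA1, 30.9% for FoxL2, 20.6% for FoxP3 and 7.26% for FoxC1. Of 9 relatives outside the clusters (the ParaHox, Cdx, Mnx and Evx genes), 7 had a combined FoxA1 event within 50 kb. Gsx1 had 7 combined FoxA1 events, Cdx2 and Mnx1 4 each and Pdx1 3, and Gsx1, Pdx1 and Cdx2 are neighbours that can share events. Gsx1, a gene of ventral forebrain, also had 5 FoxP3 events and 1 of FoxC1, and Cdx4 had 1 of FoxL2. Cdx2, which activates central and posterior Hox genes, had its nearest combined FoxA1 event 1096 bp from an end. Evx1, next to Hoxa13, had no combined FoxA1 event, its nearest lying 50858 bp away, but had 1 event with anti-FoxA1 at 48 h.

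Of 8 TALE homeodomain cofactors, which bind DNA together with Hox proteins, 7 had a combined FoxA1 event. Pbx2 had 8, Pbx4 and Pknox1 6 each, and Meis1 3 with the nearest 114 bp from an end. FoxL2 events lay near Meis2 (2) and near Meis3, Pknox1 and Pknox2 (1 each). FoxP3 had 1 event each near Meis2 and Pknox2. Of 12 genes of the retinoid pathway, 11 had a combined FoxA1 event. The receptor genes Rarg, Rara and Rarb had 7, 5 and 5, and Dhrs3, a retinaldehyde reductase, 5. FoxL2 had 2 events near Rarg and 1 each near Rara and Aldh1a2, the enzyme that makes retinoic acid. FoxC1 had 1 near Aldh1a2, and FoxP3 1 each near Dhrs3 and Stra8.

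Of 16 Polycomb and Trithorax genes, 14 had a combined FoxA1 event, with 25 near Jarid2, 15 near Cbx7, 9 near Eed and 8 near Mtf2. FoxL2 had an event near 9 of the 16, where 30.9% of all genes had one (Rnf2, Mtf2, Eed, Kmt2a, Kdm6b, Suz12, Jarid2, Cbx7 and Men1). FoxP3 had one near 8, against 20.6% (Rnf2, Bmi1, Mtf2, Eed, Kmt2a, Suz12, Pcgf2 and Jarid2), with 7 events at Jarid2, and FoxC1 had 1 event, near Eed. Among genes that flank the clusters, 18 of 19 were in the gene table (Prac1 was not matched), and 17 had a combined FoxA1 event. Snx10 near cluster A had 12, Cbx1 near cluster B 7, and Hibadh and Skap1 6 each. FoxC1, with 0 at the Hox genes, was near 6 of the 18, against 7.26% of all genes, with 1 event each near Snx10 and Skap2 and near Smug1, Cbx5, Hnrnpa1 and Nfe2, the last 4 being neighbours beside cluster C. FoxL2 had an event near 12 of the 18, against 30.9% (Atf2, Mtx2, Hnrnpa3, Snx10, Skap2, Jazf1, Calcoco2, Ttll6, Skap1, Snx11, Cbx1 and Calcoco1). FoxP3 had one near 10, against 20.6% (Hnrnpa3, Snx10, Calcoco2, Ttll6, Skap1, Snx11, Cbx1, Cbx5, Hnrnpa1 and Nfe2). Neighbouring genes share events, so these counts are not of separate events.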

How the data were processed

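The submitters' processing notes name BWA 0.7.17-r1188, Picard, SAMtools and the build mm10. ChExMix made the event lists, per the file headers. Each deposited event has a score; the sources used here do not give its scale, the settings of the caller or how libraries were combined. Gene intervals and promoter windows came from RefSeq tables of GRCm38.p6. Positions were compared in Python 3.11.15 with pandas 2.3.3, numpy 2.4.6 and scipy 1.17.1, and the counting was tested on simulated data. A cluster runs from the outer ends of its outermost Hox genes. Events within 100 bp were joined to a site. Exact Poisson 95% intervals cover counting error only. The members, gene lists and naming rule (events within 1 kb, each cluster's leading sites, and up to 4 genes per list) were chosen with earlier results of these data known. The search for 3 further motif forms, the 500 kb bands, cluster B from Hoxb9 and the events shared with a course list were chosen after seeing the data. The second empty-control library names anti-FoxA1 in its title and anti-FLAG in its characteristics. Certain items are not reported here.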

Additional observations from a re-analysis of the deposited data

How the results depend on the processing

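Of 457 comparisons of 67 results with an alternative, 312 kept the value within 1.5 times, and 145 moved by more, many of them counts of a few events whose counting intervals include the moved value. Leaving out events near those of the 0 h lists, or runs of 5 or more events spaced by up to 500 bp, moved 0. With events at or above the median score of their list, the 18 combined FoxA1 events in the windows became 8, the 8 inside became 3, the 19 of anti-FoxA1 at 48 h became 10, the 30 sites became 16, the 17 sites in 2 or more lists became 6, and FoxP3 had 1 Hox gene. With scores of 100 or more, these event counts were 8, 3 and 8. With a flank of 100 kb the anti-FoxA1 list at 48 h had 30 events, and with 500 kb it had 138 and the combined list 88. With cluster B begun at Hoxb9, 5 combined events lay inside. Within 100 kb, 21 Hox genes had a FoxL2 event and 12 a FoxP3 event, and within 20 kb 1 had a FoxP3 event. By construction, fewer events or wider windows change these counts. Within 20 kb of a gene end combined FoxA1 reached 74.4% of Hox genes against 53.7% of all, but anti-FoxA1 at 24 h turned to 41.0% against 53.8%. With events at or above the median score, anti-FoxA1 reached 12.8% against 22.8% at 12 h, 51.3% against 55.3% at 24 h and 56.4% against 61.6% at 48 h, each turned from the higher to the lower side, and anti-FLAG turned to the higher side, with 38.5% against 34.5% at 24 h and 38.5% against 31.6% at 48 h. FoxL2, level with all genes before, then reached 30.8% against 17.1%, from 2 events in the windows that neighbouring Hox genes share. Read depth is unknown, so a missing event may be a matter of depth.

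No paired analysis was possible because the 4 combined lists are not given per replicate and each course list comes from 1 library. For the same reason no replicate was left out.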
